A study of Mus musculus with 27 samples.

Results

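Mitochondrial ribosomal protein genes were followed in mouse tibialis anterior muscle, a fast ankle flexor of the hindlimb, after volumetric muscle loss (VML), the surgical removal of a volume of muscle. The members were the protein-coding genes whose symbol is Mrpl or Mrps followed by a digit, together with Dap3, whose protein is a small-subunit component. These rules took 79 of 54532 genes, of which 22046 were protein-coding. Bulk polyadenylated RNA of whole muscle was sequenced from C57BL/6 mice, 8-week-old males, and in the injured groups 40% of the muscle had been excised. Samples were taken without injury (n = 5) and at day 3 (n = 5), day 7 (n = 6), day 14 (n = 6) and day 21 (n = 5) after the excision. The sources used here differ on whether 1 or both legs were operated on, and they do not tie samples to animals, so p-values measure the spread between these samples, some of which may come from 1 mouse. The sources do not say whether the uninjured muscle had a sham operation.

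Mitochondria carry their own ribosome, which translates the few mRNAs of the mitochondrial genome, all of them for inner-membrane subunits of oxidative phosphorylation. Its RNA comes from mitochondrial DNA, whereas its proteins are encoded in the nucleus, made in the cytosol and imported. Many of these proteins have a counterpart in bacterial ribosomes and the others were added in the line that led to mitochondria, and in muscle fibres the products of this ribosome serve the respiratory chain.

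The level of a gene was the deposited FPKM (fragments scaled by gene length and by a denominator for each sample), and fold changes were differences of log2(FPKM + 1) between group means, which understate the change of genes with low values. Samples held 14376395 to 24436763 reads counted in genes (median 17398586), recovered from FPKM and gene length. Of the 79 members, 78 passed the filter of FPKM at least 0.5 in at least 5 samples, as did 14630 genes in all. Mrpl53, a large-subunit gene, was listed at 0 in all 27 samples, and 88.0% of its exon bases are shared with Gm42688 and the antisense gene Ccdc142os. Among the tested members the lowest count was 82 reads, for Mrps18b, followed by 106 for Mrps22 and 121 for Mrps34. By distance between log2 profiles over all tested genes, 9 of 27 samples lay nearer to the mean of another group than to that of their own. They were replicate 5 of day 3 (nearest to day 7), replicates 3, 5 and 6 of day 7 (nearest to uninjured, day 3 and day 21), replicates 1, 3 and 6 of day 14 (nearest to day 7, day 21 and day 21) and replicates 3 and 5 of day 21 (nearest to day 14).

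The tissue was checked against its markers. All 10 mature fast myofibre markers were detected in every sample, with Acta1, skeletal actin, the most abundant at a mean FPKM of 32612 without injury. Their summed FPKM was 93541, 96878, 104657, 90215 and 107721 in the 5 uninjured samples and 44963, 50384, 35057, 23174 and 67159 in the 5 samples of day 3. No day 3 sample reached the lowest uninjured one. The lowest, median and highest sums were 29312, 52433 and 106576 at day 7 and 48082, 68833 and 105744 at day 14, and the day 21 samples held 100001, 83432, 77981, 113049 and 78845. Of these markers 8 were called lower at day 3. At the later times 4, 1 (Ckm) and 0 were (limma; for the 0, 1 at unadjusted p under 0.05 and 0 with voom weights). On a common sum of FPKM the counts were 3, 0, 0 and 0, and with quantile normalization 2, 0, 0 and 0, where Tnnt3, Ckm and Atp2a1, called lower at day 7 as deposited, changed sign to 0.11, 0.12 and 0.026. The 7 macrophage and leukocyte markers, also all detected in every sample and led by Lyz2, summed to 18.01, 23.1, 16.2, 22.3 and 24.8 without injury and to 1414, 995, 1969.9, 2144 and 313 at day 3. All 7 were called higher at day 3, followed by 6, 2 (Cd68 and Lyz2) and 0 at the later times (limma; for the 0, 0 at unadjusted p under 0.05 and 0 with voom weights), and on a common sum 7, 7, 2 and 0 were. Their sums had not returned to the uninjured range, at 45.7 to 2007, 43.6 to 103 and 31.1 to 57.00 at days 7, 14 and 21. In whole muscle, fewer cells of a type and less RNA per cell cannot be told apart, and the part of the changing cell types in the members' values was not tested.

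Without injury the 79 members summed to an FPKM of 3787, 2722, 3333, 2707 and 2992 in replicates 1 to 5. At day 3 the sums were 2172, 2368, 1873, 1645 and 2128, so that every injured sample lay under the lowest uninjured sample. The lowest, median and highest of the 6 sums were 1356, 2157 and 2504 at day 7 and 1340.3, 2239 and 3111 at day 14. The day 7 samples all lay under the uninjured range, and the highest of day 14 lay within it. At day 21 the samples held 2592, 2679.7, 2674, 2762 and 2507, a narrow range that overlapped the lowest uninjured samples. Group means with SD were 3108 ± 457, 2037 ± 281, 2043 ± 515, 2252 ± 603 and 2643 ± 96.9 for uninjured, day 3, day 7, day 14 and day 21. As a share of all reads of a sample the members held 0.464 ± 0.0435% without injury and 0.483 ± 0.0194%, 0.442 ± 0.0531%, 0.437 ± 0.0490% and 0.451 ± 0.0542% at the 4 times (SD over samples). The lower summed FPKM thus had no counterpart of that size in the share of reads, in which all groups overlapped.

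These readings use different scalings between samples. The deposited FPKM values imply a denominator that is not the sample's own total of reads: denominator over reads averaged 0.782 without injury and 1.25, 1.18, 1.04 and 0.897 at days 3, 7, 14 and 21. On the deposited scaling the median log2 fold change of all tested genes was 0.012, 0.028, 0.020 and 0.014 at the 4 times. With every sample set to a common sum of FPKM it became 0.51, 0.48, 0.29 and 0.12, and with its own total reads in the denominator 0.40, 0.36, 0.25 and 0.12. The members' median relative to that of all genes was -0.53, -0.55, -0.43 and -0.24 as deposited, -0.24, -0.34, -0.26 and -0.15 on a common sum and -0.29, -0.39, -0.29 and -0.16 on own totals. A factor for each sample shifts the log2 values of all genes alike, except through the 1 added to FPKM, which damps the shift of low values. The differences between these relative medians therefore come from the added 1 and not from a change of the members against other genes. Of the 78 members, 77, 78, 78 and 73 lay under the median of all genes as deposited, 65, 73, 73 and 68 on a common sum and 70, 76, 75 and 69 on own totals. The place of the members under the typical gene was found on every scaling named here, scalings that could change it only through the added 1. The sign of the members' own median at days 3, 7 and 14 depended on the scaling, whereas at day 21 it was negative on each.

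**Figure D1:**
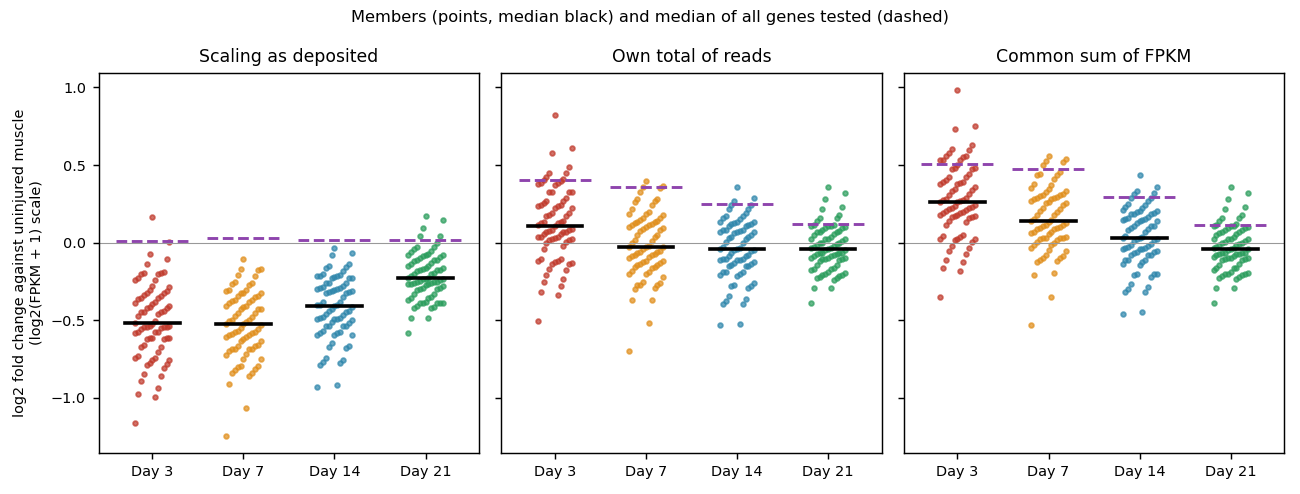
Log2 fold change against uninjured muscle (vertical axis) of the 78 tested members (points) at days 3, 7, 14 and 21 under the deposited scaling, each sample's own total of reads and a common sum of FPKM, with the members' median (black) and the median of all tested genes (dashed). Members sit mostly under the dashed line in each panel, but their median at day 3 moves from -0.52 as deposited to 0.11 on own totals and 0.26 on a common sum, so its direction flips with the scaling.

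At day 3, 45 of 78 members were called lower and 0 higher on the deposited scaling, against 19.8% of all tested genes called lower and 23.4% called higher; on a common sum 0 were lower and 10 higher (all genes: 2.20% and 46.9%), and on own totals 1 lower (Mrpl42) and 7 higher (all genes: 4.22% and 44.7%). The members' share called higher was thus under that of all genes on each of these scalings. The 0 higher is limma's count, with 0 also at an unadjusted p under 0.05 and 0 with voom weights. The median log2 fold change was -0.52 as deposited, 0.26 on a common sum and 0.11 on own totals, and 36 members had all 5 day 3 samples under all 5 uninjured samples, against 16.5% of all genes. Leaving out replicate 4 of day 3 took the count called lower from 45 to 29; that sample was the lowest of its group for 52 members.

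At day 7, 49 members were called lower and 0 higher as deposited (all genes: 14.4% and 15%), with a median of -0.53, whereas a common sum gave 1 lower, 4 higher (all genes: 1.43% and 43.1%) and a median of 0.14, and own totals 3 lower, 1 higher (all genes: 2.90% and 36.6%) and -0.028. Replicates 3 and 6 of day 7, which held almost none of the signal of regenerating fibres (summed FPKM of 3.74 and 5.01 against 113 to 216 in the other 4), are part of these changes. No overlap with the uninjured samples was seen for 20 members, against 5.37% of all genes. The count called lower was 29 without uninjured replicate 1, 31 without replicate 1 of day 7 and 31 without replicate 5 of day 7. It was 30 without replicate 5 of both day 3 and day 7, the pair of samples whose nearest group means were exchanged. Uninjured replicate 1 was the highest of its group for 52 members and replicate 1 of day 7 the lowest for 50, while the highest values of day 7 were divided among replicates 2 (27 members), 3 (24), 6 (20) and 4 (7). For the 0 called higher, limma had 0 at an unadjusted p under 0.05 and voom weights gave 0.

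At day 14, 23 members were called lower and 0 higher as deposited (all genes: 11.3% and 9.02%), at a median of -0.41, while on a common sum 0 and 0 were called (all genes: 0.731% and 11.5%) at a median of 0.030, and on own totals 1 lower (Mrpl42) and 0 higher (all genes: 1.97% and 15.6%) at -0.042. The injured samples lay wholly under the uninjured ones for 13 members, against 8.05% of all genes. By the SD of the summed FPKM, day 14 had the widest spread of the 5 groups: replicate 1 was lowest for 59 members and replicate 6 highest for 50. Without uninjured replicate 1 the count called lower was 11, without replicate 1 of day 14 it was 14, and without replicate 5 of day 14 it was 13. Quantile normalization gave 9, and replicate blocks by number and by letter gave 38 and 35. For the 0 called higher, limma had 0 at an unadjusted p under 0.05 and voom weights gave 0.

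At day 21, 0 members were called lower and 0 higher (all genes: 1.69% and 1.74%), by limma and with voom weights alike, and 11 were lower and 0 higher at an unadjusted p under 0.05. A fit to uninjured and day 21 samples alone called 6 lower. As deposited, 73 members had a negative and 5 a positive log2 fold change, at a median of -0.23, whereas the median was -0.039 on a common sum and -0.039 on own totals. The closest to the threshold was Mrps23, at -0.49 (SE 0.16, limma with Benjamini-Hochberg adjusted p = 0.0914). All 5 day 21 samples lay under all 5 uninjured samples for 8 members, against 5.13% of all genes. Replicate 5 of day 21 was the lowest of its group for 46 members. The members held 0.361% of its reads, against at least 0.446% in each other day 21 sample. Mitochondrially encoded mRNAs held 33.7% of its reads, against at most 21.7% in the others. The comparisons of days 3, 7, 14 and 21 share the 5 uninjured samples, so their values are not independent of each other.

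**Figure D2:**
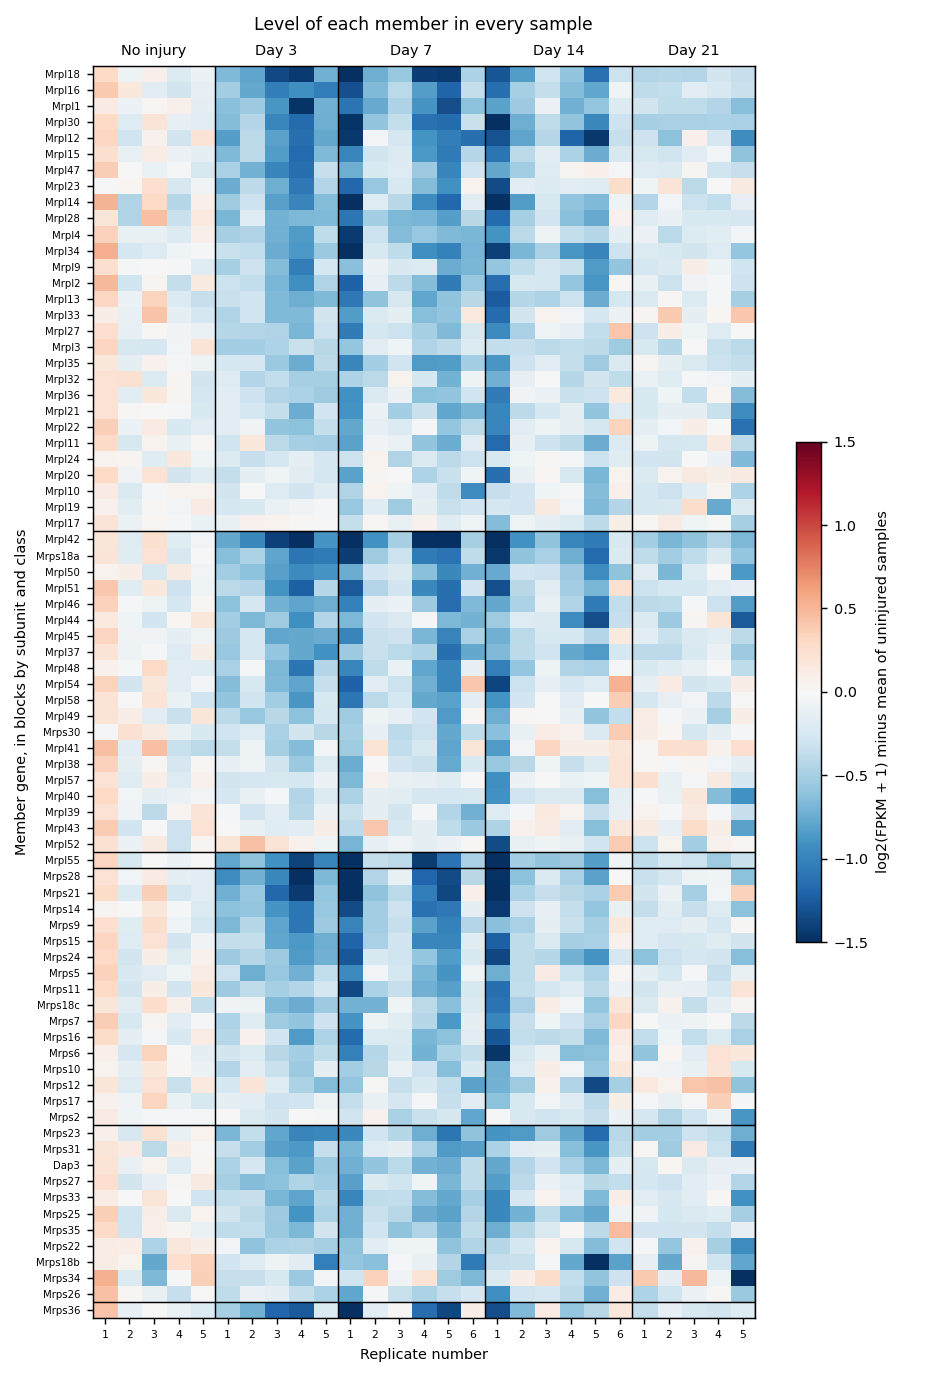
Heat map of log2(FPKM + 1) minus the mean of the uninjured samples for 78 members (vertical) in 27 samples (horizontal, grouped as uninjured, day 3, day 7, day 14 and day 21), with colours limited to 1.5 in either direction and members in blocks by subunit and origin, ordered by their day 3 change. On the deposited scaling most members are lower at days 3, 7 and 14, with replicate 1 of days 7 and 14 lowest for most, but on a common sum of FPKM the median of the members is 0.26, 0.14 and 0.030 at those times.

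The large subunit, which holds the site of peptide bond formation, had 49 tested members without Mrpl55, whose origin was not assigned. Of these 29, 30, 17 and 0 were called lower at days 3, 7, 14 and 21 as deposited. Of all tested genes 19.8%, 14.4%, 11.3% and 1.69% were called lower at these times. The large-subunit members with a bacterial counterpart, 29 genes, gave 18, 19, 12 and 0 called lower as deposited, at a day 3 median of -0.54. On a common sum they gave 0 called lower at each time and 3, 1, 0 and 0 called higher, with a day 3 median of 0.27. At days 3, 7 and 14 the 0 of 29 is near the low shares of all genes called lower on that scaling, given above. The counts called higher at days 3 and 7 are under the shares of all genes given there. Mrpl18 (ENSMUSG00000057388; chr17:12911349-12916345, minus strand), the counterpart of a bacterial protein that binds ribosomal RNA, had FPKM values of 112, 86.6, 95.9, 79.1 and 85.9 without injury. At day 3 the 5 samples held 57.1, 52.5, 35.1, 33.00 and 54.9, and at day 21 66.8, 67.6, 66.9, 75.1 and 71.4. Every injured sample of both days lay under the lowest uninjured sample. Its log2 fold change was -0.99 (SE 0.23, limma with Benjamini-Hochberg adjusted p = 0.00113) at day 3 as deposited, -0.18 on a common sum and -0.34 on own totals. At day 7 the lowest, median and highest values were 26.3, 44.1 and 65.4, with a log2 fold change of -1.06 (SE 0.22, limma with Benjamini-Hochberg adjusted p = 0.00124) as deposited, -0.35 on a common sum, where it was not called, and a call on own totals (-0.52, limma with Benjamini-Hochberg adjusted p = 0.00681). At day 14 it fell by 0.74 as deposited (-0.27 on a common sum and -0.34 on own totals, neither called), a call that was lost without uninjured replicate 1 (-0.67) or replicate 5 of day 14 (-0.66).

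Mrpl1, named after the protein of the L1 stalk, a mobile arm of the large subunit, stood at 12.8, 10.9, 11.9, 12.4 and 10.4 without injury and at 7.19, 7.69, 5.93, 3.59 and 6.69 at day 3. The groups did not overlap, and the difference was -0.85 (SE 0.17, limma with Benjamini-Hochberg adjusted p = 0.000296), with -0.11 on a common sum and -0.26 on own totals. At day 7 Mrpl1 was called lower on own totals (-0.37, limma with Benjamini-Hochberg adjusted p = 0.0275) but not on a common sum. Mrpl16, whose bacterial counterpart lies near the catalytic centre, measured 72.5, 61.8, 49.4, 45.4 and 50.7 without injury against 37.97, 32.1, 26.3, 28.6 and 26.3 at day 3, again without overlap. It fell by 0.86 at day 3 and by 0.80 at day 7 as deposited (limma with Benjamini-Hochberg adjusted p = 0.000792 and 0.00260), with -0.053 on a common sum and -0.21 on own totals at day 3. The day 3 calls of Mrpl18, Mrpl1 and Mrpl16 were each kept in all 27 fits that left out 1 sample. Mrpl12, the counterpart of the bacterial stalk protein that recruits translation factors, fell from 77.3 ± 14.9 (SD, n = 5) to 44.3 ± 8.34 (SD, n = 5) at day 3 and to 41.6 ± 13.9 (SD, n = 6) at day 14 as deposited, but its day 3 difference was 0.026 on a common sum and -0.13 on own totals. At day 14 its log2 fold change was -0.92 (SE 0.24, limma with Benjamini-Hochberg adjusted p = 0.00966), with -0.45 on a common sum and -0.53 on own totals. Mrpl30 fell by 0.79, 0.84 and 0.76 at days 3, 7 and 14 (on a common sum 0.020, -0.13 and -0.29).

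The abundant members Mrpl34 and Mrpl14 varied widely among the uninjured samples. Mrpl34 had the values 216, 123, 129, 141 and 146 without injury, the first of them far above the others, and 117, 114, 87.4, 80.8 and 100.3 at day 3, all under the lowest uninjured sample. Its day 3 difference was -0.58 (SE 0.22, limma with Benjamini-Hochberg adjusted p = 0.0392) as deposited and turned to 0.24 on a common sum and 0.086 on own totals. That call was lost without uninjured replicates 1, 4 or 5 (-0.44, -0.59 and -0.58) or day 3 replicates 3, 4 or 5 (-0.53, -0.50 and -0.58), whereas the call at day 7, -0.82 (SE 0.21, limma with Benjamini-Hochberg adjusted p = 0.00627), was kept in all 27 such fits. The day 7 value of Mrpl34 was -0.097 on a common sum and -0.27 on own totals, neither of them called. At day 14 Mrpl34 stood at -0.79 as deposited, -0.32 on a common sum and -0.39 on own totals. Mrpl14 averaged 124 ± 36.6 without injury and 76.6 ± 13.8 at day 3 (SD, n = 5 each), at -0.66 (SE 0.27, limma with Benjamini-Hochberg adjusted p = 0.0523), which missed the threshold. At day 7 it was called, at -0.75 (SE 0.26, limma with Benjamini-Hochberg adjusted p = 0.0320) with -0.032 on a common sum and -0.20 on own totals. The call was lost without uninjured replicates 1, 3 or 5 (-0.62, -0.68 and -0.73) or day 7 replicates 1, 4 or 5 (-0.58, -0.71 and -0.67), while a call at day 3 was gained without uninjured replicates 2 or 4 (-0.77 each), day 3 replicate 2 (-0.75), day 7 replicates 1, 2 or 6, or day 14 replicates 1 or 6 (-0.66 in each of these 5). A call at day 14 was gained without replicates 3 or 6 of that day (-0.76 and -0.79) or replicate 1 of day 7 (-0.68). Mrpl19, at 3.49 ± 0.335 (SD, n = 5) the least abundant tested member without injury, was not called as deposited with all samples. It was called lower at day 7 with quantile normalization (-0.44) and without day 21 replicates 3 or 4 (-0.34, -0.34), and at day 21 against day 3 on a common sum (-0.59), and 36% of its exon bases overlap Gcfc2 on the other strand.

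Of the large-subunit members specific to mitochondria, 20 tested, 11, 11, 5 and 0 were called lower at days 3, 7, 14 and 21 as deposited, with a day 3 median of -0.52. On a common sum that median was 0.28 and 6 were called higher, or 30%, under the 46.9% of all genes. As deposited 19.8%, 14.4%, 11.3% and 1.69% of all tested genes were called lower at these times. Mrpl42 (ENSMUSG00000062981; chr10:95480805-95501940, minus strand) showed the largest fall of any member at days 3, 7 and 14. Its FPKM was 122, 93.8, 127, 94.2 and 104 in the uninjured samples and 62.5, 54.4, 40.01, 30.1 and 57.8 at day 3. The lowest, median and highest values were 24.1, 44.6 and 75.9 at day 7 and 29.9, 55.5 and 91.01 at day 14, and day 21 held 75.2, 66.2, 70.4, 78.9 and 67.1. No injured sample of any day reached the lowest uninjured sample. The log2 fold changes were -1.16 (SE 0.28, limma with Benjamini-Hochberg adjusted p = 0.00172) at day 3, -1.24 (SE 0.27, limma with Benjamini-Hochberg adjusted p = 0.00178) at day 7 and -0.93 (SE 0.27, limma with Benjamini-Hochberg adjusted p = 0.0172) at day 14. These 3 calls were kept in all 27 fits that left out 1 sample. At day 21 the difference of -0.58 (SE 0.28, limma with Benjamini-Hochberg adjusted p = 0.252) was not called. On own totals Mrpl42 was also called lower at day 3 (-0.51), day 7 (-0.70) and day 14 (-0.53). On a common sum it was called lower at day 7 (-0.53), with -0.35 at day 3 and -0.46 at day 14. It was the only member called lower on that scaling in a comparison with uninjured muscle.

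Mrps18a and Mrps30 carry small-subunit names but their proteins belong to the large subunit. Mrps18a stood at 31.9, 24.4, 32.4, 23.3 and 27.9 without injury and at 17.4, 19.7, 15.6, 12.4 and 12.8 at day 3, without overlap, and fell by 0.81, 0.80 and 0.78 at days 3, 7 and 14 as deposited (on a common sum -0.025, -0.11 and -0.32). Mrps30 was called lower at day 7, at -0.41 (SE 0.14, limma with Benjamini-Hochberg adjusted p = 0.0270), but the value was 0.20 on a common sum and 0.050 on own totals, and the call was lost without uninjured replicate 2 (-0.35), uninjured replicate 3 (-0.38) or day 7 replicate 5 (-0.34). Mrpl54, among the most abundant members at 138 ± 24.5 (SD, n = 5), gave log2 fold changes of -0.54 (SE 0.27) at day 3 and -0.50 (SE 0.26) at day 7 and was not called as deposited with all samples, but was called at day 7 without day 7 replicate 6 (-0.68). Mrpl55, a large-subunit gene by name whose origin was not assigned here, fell from 103, 69.4, 82.6, 77.6 and 83.1 to 47.5, 53.9, 43.3, 30.8 and 41.05 at day 3, a change of -0.94 (SE 0.24, limma with Benjamini-Hochberg adjusted p = 0.00299) with -0.12 on a common sum and -0.28 on own totals. All 5 day 3 samples and all 6 day 7 samples of Mrpl55 lay under every uninjured sample, and the day 14 call of -0.68 (SE 0.23) was lost in 7 of 27 fits: without uninjured replicates 1, 3, 4 or 5 (-0.60, -0.68, -0.70 and -0.68) or day 14 replicates 1, 4 or 5 (-0.51, -0.70 and -0.65).

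At the other end stood Mrpl52 and Mrpl17, named after their values were seen. Mrpl52, specific to mitochondria, held 75.1, 60.5, 70.8, 51.3 and 65.97 without injury and 72.6, 87.7, 73.9, 67.4 and 61.5 at day 3, largely the same range. Its day 3 difference of 0.17 (SE 0.22, limma with Benjamini-Hochberg adjusted p = 0.568) was not called as deposited, but on a common sum it was called higher at 0.98 (limma with Benjamini-Hochberg adjusted p = 0.000298) and on own totals at 0.82 (limma with Benjamini-Hochberg adjusted p = 0.000607). Mrpl17, with a bacterial counterpart, gave 11.4, 9.06, 10.1, 9.67 and 9.06 without injury and 9.01, 10.3, 10.2, 9.96 and 9.80 at day 3, at a log2 fold change of 0.0026 (SE 0.13) as deposited, and was called higher at 0.75 on a common sum and 0.61 on own totals. Across the large subunit, day 3 changes as deposited thus ran from -1.16 for Mrpl42 to 0.17 for Mrpl52, and on a common sum these members stood at -0.35 and 0.98.

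The small subunit, where mRNA is decoded, had 27 tested members, with 14, 18, 5 and 0 called lower at days 3, 7, 14 and 21 as deposited. The 16 with a bacterial counterpart gave 7, 11, 1 and 0, and the 11 specific to mitochondria gave 7, 7, 4 and 0. On a common sum limma called 0 of either kind lower at these times, and 1 of the 16 higher at day 3. At days 3, 7 and 14 those 0 counts are near the low shares of all genes given above for that scaling. The day 3 medians were -0.42 and -0.52 as deposited, and 0.36 and 0.23 on a common sum. Of all tested genes 19.8%, 14.4%, 11.3% and 1.69% were called lower at days 3, 7, 14 and 21 as deposited. At day 14, 1 of 16 is under and 4 of 11 over the 11.3%. The 1 call at day 14 among those with a bacterial counterpart was Mrps24 (-0.67, SE 0.19), named after its value was seen.

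Mrps21 was the most abundant member. Without injury it held 319, 229, 338, 219.5 and 234, and at day 3 159.7, 177, 116, 96.99 and 176, all under the uninjured range. The lowest, median and highest values of 85.6, 151 and 278 at day 7 and 70.7, 193 and 343 at day 14 overlapped it. Mrps21 fell by 0.90 at day 3 and 0.82 at day 7 (limma with Benjamini-Hochberg adjusted p = 0.0251 and 0.0436), but these calls rested on several libraries. The day 3 call was lost without uninjured replicates 1 or 3 (-0.83 and -0.81) or day 3 replicates 3 or 4 (-0.82 and -0.76), and the day 7 call without any 1 of the uninjured replicates (-0.76, -0.87, -0.73, -0.89 and -0.87) or without day 7 replicates 1, 4 or 5 (-0.67, -0.78 and -0.72). Its values on a common sum were -0.074 and -0.10 at days 3 and 7. Mrps28 had 150.2, 126, 141, 117 and 116 without injury and 67.1, 77.9, 65.5, 42.7 and 80.7 at day 3, with no overlap. Its change of -0.98 (SE 0.26, limma with Benjamini-Hochberg adjusted p = 0.00344) was kept in all 27 fits that left out 1 sample, with -0.16 on a common sum and -0.32 on own totals. Mrps9, whose bacterial counterpart reaches the decoding site with its tail, went from 12.1, 8.71, 12.2, 9.54 and 8.20 to 5.90, 7.21, 5.37, 4.22 and 6.57 at day 3, also without overlap, at -0.70 (SE 0.16, limma with Benjamini-Hochberg adjusted p = 0.000995) as deposited and 0.025 on a common sum and -0.12 on own totals.

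Among the small-subunit members specific to mitochondria, Mrps23 (ENSMUSG00000023723; chr11:88204388-88211507, plus strand) had FPKM values of 76.1, 61.3, 84.7, 66.96 and 74.9 without injury and 44.6, 55.9, 41.6, 35.8 and 36.4 at day 3. At days 7 and 14 the lowest, median and highest were 33.6, 45.2 and 58.99 and 31.8, 40.8 and 53.8, and at day 21 the samples held 50.6, 50.6, 58.1, 55.6 and 43.1. Every injured sample, day 21 included, lay under the lowest uninjured value of 61.3. The log2 fold changes were -0.76 (SE 0.16, limma with Benjamini-Hochberg adjusted p = 0.000544) at day 3, -0.68 (SE 0.16, limma with Benjamini-Hochberg adjusted p = 0.00245) at day 7 and -0.77 (SE 0.16, limma with Benjamini-Hochberg adjusted p = 0.00188) at day 14, each kept in all 27 fits without 1 sample. They were, on a common sum, 0.051, 0.032 and -0.30, so the first and second turned sign. Dap3 (ENSMUSG00000068921; chr3:88920803-88951181, minus strand), a GTP-binding protein first known from work on cell death, measured 13.8, 10.9, 12.3, 10.3 and 12.01 without injury and 8.20, 9.77, 7.19, 6.32 and 7.68 at day 3. The groups did not overlap, and it fell by 0.55, 0.59 and 0.47 at days 3, 7 and 14 as deposited (limma with Benjamini-Hochberg adjusted p = 0.000989, 0.00100 and 0.00800), with 0.20, 0.068 and -0.033 on a common sum.

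Mrps22 averaged 5.56 ± 1.05 without injury and 3.92 ± 0.791 at day 3 (SD, n = 5 each), at -0.41 (SE 0.18, limma with Benjamini-Hochberg adjusted p = 0.0619), not called as deposited with all samples, but called with quantile normalization (-0.51) and when uninjured replicate 3 (-0.53), day 3 replicate 1 (-0.50) or day 21 replicate 5 (-0.41) was left out. Mrps35 was called at day 3 at -0.45 (SE 0.16, limma with Benjamini-Hochberg adjusted p = 0.0225), with 0.21 on a common sum and 0.082 on own totals. That call was lost without uninjured replicate 1 (-0.38) or day 3 replicates 3 or 4 (-0.42 and -0.39). Its day 7 call, -0.53 (SE 0.15, limma with Benjamini-Hochberg adjusted p = 0.0107), was kept in all 27 such fits, with 0.059 on a common sum and -0.084 on own totals. Of the 3 paralogs of Mrps18, Mrps18a stood at 27.97 ± 4.18, Mrps18c at 29.3 ± 5.14 and Mrps18b at 9.34 ± 2.67 FPKM without injury (SD, n = 5), the first 2 with overlapping samples. Of them Mrps18a was called, whereas Mrps18c (-0.42, SE 0.21, limma with Benjamini-Hochberg adjusted p = 0.105) and Mrps18b (-0.35, SE 0.26, limma with Benjamini-Hochberg adjusted p = 0.307) were not at day 3. The difference between paralogs was not tested. Mrps36, named as a ribosomal protein but now placed in the oxoglutarate dehydrogenase complex of the citric acid cycle, gave 98.4, 67.1, 72.9, 68.3 and 63.2 without injury and 51.3, 44.1, 31.6, 30.04 and 62.7 at day 3. Its day 3 difference was -0.77 (SE 0.30, limma with Benjamini-Hochberg adjusted p = 0.0393), with 0.036 on a common sum and -0.12 on own totals. The call was lost in 7 of 27 fits, without uninjured replicates 1, 2, 3 or 4 (-0.67, -0.80, -0.78 and -0.80) or day 3 replicates 2, 3 or 4 (-0.79, -0.67 and -0.65).

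Day 21 was also set directly against day 3, to ask which members differed between the earliest and the latest time. As deposited 7 of 78 members were called higher at day 21 (all genes: 9.23%) and 0 lower (all genes: 16.2%; limma, with 1 at an unadjusted p under 0.05 and 0 with voom weights), at a median of 0.30, but on a common sum 0 were higher and 7 lower (all genes: 1.16% and 33.1%) at -0.27, and on own totals 0 higher and 4 lower (all genes: 2.15% and 30.6%) at -0.13. The share called lower was thus under that of all genes on each scaling. As deposited the share called higher, 7 of 78, was near that of all genes. The 7 called higher depended on the fit, with 21 in a fit to the 2 groups alone, 15 with quantile normalization, 11 and 2 with replicate blocks by number and by letter, and 3 with no filter on low values. The 7 were Mrps28 (0.71, SE 0.26), Mrpl23 (0.65, SE 0.23), Mrpl33 (0.62, SE 0.20), Mrpl16 (0.56, SE 0.19), Mrps9 (0.55, SE 0.16), Mrpl47 (0.53, SE 0.18) and Dap3 (0.41, SE 0.12), with 0.087, 0.048, 0.033, -0.053, -0.0028, 0.0092 and -0.15 on a common sum. Mrpl23, whose bacterial counterpart sits at the exit of the peptide tunnel, held 15.7, 20.2, 15.8, 12.3 and 19.6 at day 3 and 25.7, 31.03, 20.04, 27.1 and 29.8 at day 21, with the lowest day 21 sample inside the day 3 range. Mrpl33 held 9.70, 10.9, 8.25, 8.29 and 11.1 at day 3 and 14.1, 18.2, 12.3, 13.9 and 18.4 at day 21, without overlap. Mrpl47 held 5.17, 4.28, 3.33, 2.95 and 5.76 and 6.52, 6.46, 7.89, 5.98 and 5.76, whose lowest value equalled the highest of day 3 to 3 digits. The count of 7 rested on single libraries. It was 4 without day 21 replicate 1, 3 without replicate 2, 4 without replicate 3 and 4 without replicate 4 of that day. Without day 3 replicates 2, 3 and 4 in turn it was 11, 2 and 0, and without day 7 replicate 5 it was 11. Single libraries also carried single calls. Those of Dap3 and Mrps9 were lost without day 3 replicate 4 (0.35) and day 3 replicate 4 (0.45). The call of Mrpl33 was lost without day 21 replicates 2 or 5 (0.55, 0.55) or day 3 replicates 3 or 4 (0.57, 0.57), and that of Mrpl16 without day 21 replicates 3 or 4 (0.53, 0.55) or day 3 replicates 3, 4 or 5 (0.52, 0.55, 0.52). For Mrpl47 this held without day 21 replicates 1, 2 or 3 (0.53, 0.53, 0.47) or day 3 replicates 3 or 4 (0.46, 0.43), and for Mrpl23 without day 21 replicates 1, 2, 4 or 5 (0.66, 0.59, 0.64, 0.61) or day 3 replicates 1, 3 or 4 (0.63, 0.64, 0.55). Mrps28 was the least secure, as its call was lost without uninjured replicates 2, 3, 4 or 5 (0.71, 0.71, 0.71, 0.71), day 14 replicates 2 or 4 (0.71, 0.71), day 21 replicates 1, 2, 3 or 4 (0.73, 0.71, 0.66, 0.66) or day 3 replicates 1, 3 or 4 (0.72, 0.71, 0.56). On a common sum and on own totals alike, Mrpl52, Mrps2, Mrpl40 and Mrpl17 were called lower at day 21 than at day 3; these were named after their values were seen.

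The members were also divided by abundance. With the 78 members split by their mean FPKM without injury into 3 sets of 26, the lowest (3.49 to 13.9), middle (14.7 to 35.2) and highest (40.2 to 268) sets had 14, 13 and 18 called lower at day 3 as deposited. All tested genes, which were not matched for abundance, had 19.8%, 14.4% and 11.3% called lower at days 3, 7 and 14. The median log2 fold changes of these sets were -0.44, -0.44 and -0.62. At day 7 the counts were 17, 14 and 18, and at day 14 they were 7, 6 and 10. On a common sum 1 member in all was called lower at day 7 and 0 at days 3 and 14, near the low shares of all genes given above for that scaling.

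Genes that work with the mitochondrial ribosome but fall outside the naming rule were counted in the same fit, at days 3, 7, 14 and 21. Of the 4 ribosomal subunits with other names (Ptcd3, Chchd1, Aurkaip1 and Gadd45gip1), 3, 2, 1 and 0 were called lower as deposited, against 0, 0, 0 and 0 on a common sum. A count of 0 lower on a common sum at days 3, 7 and 14, here and in the next lists, is near the low shares of all genes given above for that scaling. Chchd1 averaged 137 ± 7.98 without injury and 74.8 ± 7.36 at day 3 (SD, n = 5 each), at -0.87 (SE 0.24, limma with Benjamini-Hochberg adjusted p = 0.00468). Ptcd3, which binds the small subunit, also fell at day 3 as deposited (-0.65, SE 0.17) and stood at 0.030 on a common sum. Of 26 assembly factors, 12, 9, 3 and 0 were called lower and 0 higher at these times as deposited, against 0, 0, 0 and 0 lower and 3, 3, 0 and 0 higher on a common sum. Of all tested genes 19.8%, 14.4%, 11.3% and 1.69% were called lower as deposited, so the count of assembly factors at day 14 is near that of all genes, and on a common sum 46.9% were called higher at day 3. The assembly factors were led at day 3 by Mrm3, a methyltransferase of the large ribosomal RNA (-0.91, SE 0.24), Malsu1, a factor of large-subunit assembly (-0.86, SE 0.19), and Eral1, which binds the small ribosomal RNA (-0.84, SE 0.16). Of 15 translation factors 14 were tested, Pdf having failed the filter, and 9, 8, 4 and 0 were called lower as deposited against 0, 0, 0 and 0 on a common sum. The largest falls at day 3 were those of Lrpprc, which stabilises mitochondrial mRNAs (-0.89, SE 0.16), Gfm1, an elongation factor (-0.79, SE 0.21), and Gfm2, a factor of ribosome recycling (-0.74, SE 0.17).

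Of 20 genes for charging mitochondrial tRNAs, 8, 6, 3 and 0 were called lower as deposited and 0, 0, 0 and 0 on a common sum. They were led at day 3 by Qrsl1 (-0.89, SE 0.14) and Gatb (-0.71, SE 0.14), subunits of 1 amidotransferase, and Aars2, the alanine enzyme (-0.78, SE 0.17). Of all tested genes 19.8%, 14.4%, 11.3% and 1.69% were called lower as deposited at days 3, 7, 14 and 21. The 3 of 20 at day 14 are thus near the share of all genes. Of 11 genes for transcription and replication of mitochondrial DNA, 7, 4, 4 and 0 were called lower as deposited and 0, 0, 0 and 0 on a common sum. Among them Tfb2m, a transcription initiation factor, fell by 0.94 and Tefm, an elongation factor, by 0.77 at day 3. For each list in which 0 were called lower at day 21, limma had 0, 4, 6, 6 and 3 at an unadjusted p under 0.05, in the order given, and voom weights called 0, 0, 0, 0 and 0. Of the 9 nuclear regulators, 4, 4, 3 and 0 were called lower and 2, 2, 1 and 0 higher as deposited (of all tested genes 23.4%, 14.96%, 9.02% and 1.74% were higher), and 1, 0, 0 and 0 lower and 4, 4, 1 and 0 higher on a common sum. Ppargc1a, a coactivator of mitochondrial genes, averaged 4.75 ± 0.927 without injury and 1.503 ± 0.627 at day 3 (SD, n = 5 each), at -1.22 (SE 0.20, limma with Benjamini-Hochberg adjusted p = 4.54e-05). Esrra, a nuclear receptor that works with it, gave -1.13 (SE 0.23, limma with Benjamini-Hochberg adjusted p = 0.000302), while Myc, a growth regulator, gave 1.51 (SE 0.28, limma with Benjamini-Hochberg adjusted p = 0.000129). Nrf1 (0.11, SE 0.098) and Gabpa (-0.12, SE 0.16), factors known to bind promoters of such genes, named here for the motifs searched further on, were not called at day 3, and Yy1 fell by 0.27.

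Genes whose products meet those of mitochondrial translation, and the proteins of the other ribosome, were set beside the members. All 36 genes of a list of complex I subunits taken by symbol were called lower at day 3 as deposited, followed by 29, 8 and 0 at days 7, 14 and 21. For the 0 at day 21 limma had 2 at an unadjusted p under 0.05 and voom weights called 0. On a common sum 9, 8, 0 and 0 of these genes were called lower. The list is not the complete set, and as it rests on symbols alone it may hold genes whose protein is placed in another complex. Their medians relative to all genes at day 3 were -1.21 as deposited and -0.89 on a common sum, beside -0.53 and -0.24 for the members. For each list the values on the 2 scalings differ only through the 1 added to FPKM. The difference between the lists was not tested. Of 13 mRNAs encoded in mitochondrial DNA, which this ribosome translates, 12, 11, 2 and 0 were called lower as deposited and 10, 10, 2 and 0 on a common sum, at day 3 medians of -1.52 and -0.70. They held 21.7 ± 2.75% of all reads without injury and 12.04 ± 3.33% at day 3 (SD, n = 5 each). Both mitochondrial rRNAs, the RNA of the same ribosome, were called lower at days 3 and 7 as deposited and neither on a common sum, and polyadenylated RNA had been selected, so their levels depend on that step. Of the 78 proteins of the cytosolic ribosome, 52 were called higher at day 3 and 0 lower as deposited and 77 higher on a common sum, a scaling on which the members' median was also positive; for the 0 lower, limma had 0 at an unadjusted p under 0.05 and voom weights called 0. The later counts called higher were 5, 1 and 1 as deposited and 75, 24 and 0 on a common sum, Rpl3 being the call at days 14 and 21 as deposited. As deposited 52 of 78 at day 3 is over the 23.4% of all genes called higher, whereas 5 and 1 of 78 at days 7 and 14 are under the 14.96% and 9.02%. On a common sum 75 and 24 of 78 at days 7 and 14 are instead over the shares of all genes, given above for that scaling.

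**Figure D3:**
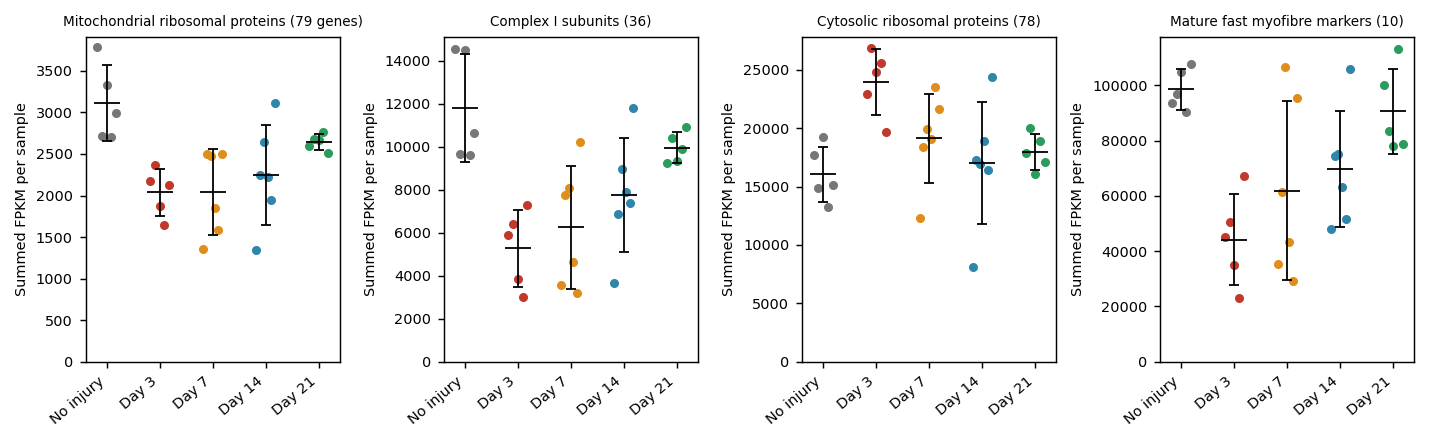
Summed FPKM per sample (vertical axes) of the 79 members, 36 complex I subunits, 78 cytosolic ribosomal proteins and 10 myofibre markers without injury and at days 3, 7, 14 and 21, with points for samples and lines for the mean and SD. As deposited the day 3 means are 2037 against 3108 for the members, 5284 against 11802 for complex I and 23970.0 against 16034 for cytosolic ribosomal proteins, while on a common sum of FPKM the median change of the members at day 3 is 0.26, so their direction flips.

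Markers of other cell types were measured in the same samples, and calls are given for days 3, 7, 14 and 21 as deposited. The 4 markers of regenerating fibres, led by Myog, summed to 1.34 to 4.58 without injury and to 363, 265, 357, 365 and 137 in the day 3 samples, with 4, 4, 4 and 2 called higher. At day 7 replicates 3 and 6 held 3.74 and 5.01, with mature fibre sums of 106576 and 95547, and the other 4 samples held 113 to 216. The sums at days 14 and 21 ran over 51.4 to 121 and 17.9 to 80.02. The 5 fibroblast markers, led by Dcn without injury and by Col1a1 at day 3, summed to 104, 115, 44.7, 88.6 and 70.4 without injury and 389.8, 466, 532, 525 and 799 at day 3, with 4, 4, 4 and 2 called higher. The 5 markers of dividing cells, led at day 3 by Birc5, summed to 0.273 to 0.825 without injury, where Ccnb1 was at 0 in 2 samples and Birc5 in 1, and to 22.1, 21.9, 30.6, 33.4 and 12.2 at day 3, with 5, 4, 1 and 0 called higher (Mki67 at day 14). Of 4 endothelial markers, led by Cdh5, Kdr was called lower at all 4 times and 0 were called higher. The sums overlapped, at 63.2 to 79.4 without injury and 43.1 to 95.2 at day 3. The 3 adipocyte markers, led by Adipoq, were called higher at day 7 alone, when their sum ran from 1.59 to 37.03 against 0.249 to 2.17 without injury. Plin1 was at 0 in 3 samples and Adipoq and Cidec in 1 each. The 5 red blood cell markers, led without injury by Hbb-bs, summed to 298 to 443 without injury and 191 to 389.5 at day 3, with 0 called. At days 7 and 14 the sums ran over 56.2 to 1120.0 (highest in replicate 6 of day 7) and 102 to 568, and at day 21 over 211 to 274, all under the uninjured range. Of 3 tendon markers, led by Thbs4, Scx was called higher at days 3, 7 and 14, and the sums were 33.5 to 71.5 without injury and 69.6 to 137 at day 3. On a common sum the counts called higher were 4, 4, 4 and 0 for regenerating fibres, 5, 5, 4 and 0 for fibroblasts, 5, 5, 0 and 0 for dividing cells, 0, 3, 0 and 0 for adipocytes and 2, 3, 1 and 0 for tendon, and 1, 1, 0 and 0 endothelial markers were called lower. For the 0 counts of red blood cell markers limma had 1 lower at day 21 at an unadjusted p under 0.05, and voom weights called 0 there. The part of these cell types in the members' values was not tested.

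The members lie on 17 chromosomes, with 11 on chromosome 11, 8 on 17 and 7 on 6. Positions are those of the gene table, which names no build. Of 79 members 74 had the same coordinates in the GENCODE M21 annotation of GRCm38, the exceptions being Mrpl11, Mrpl16, Mrpl28, Mrpl43 and Mrpl49. The libraries were not directional, so reads of overlapping genes cannot be assigned by strand, and the following members, named after their values were seen unless named above, are uncertain. Mrps34 shares 77.8% of its exon bases with Mapk8ip3 and Nme3, Mrps25 69.8% with Nr2c2, Mrpl43 33.4% with Twnk, Mrps18b 30.5% with an antisense transcript, Mrpl24 26.3% with Rrnad1 and Mrpl47 24.2% with Actl6a and Ndufb5. Lesser overlaps of 24.2% to 10.1% were found for Mrps27, Mrps18c, Mrps6, Mrps24, Mrpl10, Mrpl12, Mrpl46, Mrps7, Mrpl14 and Mrpl18. Pseudogenes of Mrpl23, Mrpl48 and Mrps36 were listed apart from their parents. The 1 of Mrpl48 reached 44.0% of the parent's FPKM in a sample, that of Mrpl23 24.4% and the highest of Mrps36 6.89%, so the levels of Mrpl23 and Mrpl48 are uncertain to that extent.

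Many members start close to a gene on the other strand. A protein-coding neighbour transcribed away from the member, with its start at most 1000 bases upstream of the member's start, was found for 18 of 79 members (22.8%). The same rule found one for 6.80% of 21918 protein-coding genes and for 9.96% of 12144 tested ones. Pairs on opposite strands that overlap at their starts were not counted. Of the 17 neighbours that were tested, 2 were called lower and 4 higher at day 3 as deposited, at a median of -0.074, while 19.8% of all tested genes were called lower and 23.4% higher, so 2 of 17 is under and 4 of 17 near the share of all genes. Those called lower were Apba3 (-0.77), 26 bases from Mrpl54, and Ptcd2 (-0.52), 81 bases from Mrps27. Those called higher were Fau (0.91), a cytosolic ribosomal protein 59 bases from Mrpl49, Ncapd2 (0.95) beside Mrpl51, Ska3 (1.11) beside Mrpl57 and Ppp1r10 (0.73) beside Mrps18b. Their partners among the members gave -0.45 (SE 0.17) for Mrpl49, -0.67 (SE 0.24) for Mrpl51, -0.23 (SE 0.16) for Mrpl57 and -0.35 (SE 0.26) for Mrps18b, and on a common sum these members stood at 0.33, 0.13, 0.56 and 0.39, all positive. Both genes of the Mrpl49 and Mrpl51 pairs passed the threshold. These genes were named after their values were seen. Mrps12 starts 172 bases from Sars2, the mitochondrial serine enzyme, and neither was called at day 3 (-0.28 (SE 0.22) and -0.32).

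Promoter sequences of RefSeq (build GRCm38.p6, 250 bases before to 50 after the gene start) were matched to 69 of 79 members. Without an entry were Dap3, Mrpl13, Mrpl15, Mrpl19, Mrpl38, Mrpl4, Mrpl54, Mrps28, Mrps34 and Mrps35. Each was searched on both strands for exact letters of 3 motifs: GCGCATGC for NRF1, CCGGAAG for the ETS family to which Gabpa belongs, and ATGGCGG for YY1. Adjacent NRF1 matches on opposite strands overlap where the letters read GCGCATGCGC. NRF1 letters stood in 8 member promoters (11.6%), ETS letters in 26 (37.7%), YY1 letters in 13 (18.8%) and any of them in 37 (53.6%), some promoters holding more than 1 kind. Among the promoters of 17492 protein-coding genes the shares were 3.94%, 12.9%, 6.05% and 20.4%, and among those of 9554 tested genes 5.86%, 19.6%, 9.33% and 30.6%. Members with and without NRF1 letters had median day 3 changes of -0.35 (n = 8) and -0.54 (n = 60) as deposited. For ETS letters the medians were -0.45 (n = 25) and -0.56 (n = 43), and for YY1 letters -0.50 (n = 12) and -0.51 (n = 56) as deposited, a scaling on which the sign of the members' median depends. A match describes the sequence and says nothing of binding.

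Parts of 3 promoters are shown, that of Mrpl34, which fell at days 3 and 7 as deposited, and those of Mrpl52 and Mrpl17, which stood highest at day 3. The ETS letters occur in both kinds, a division made on the deposited scaling. On a common sum Mrpl34 was also positive at day 3, at 0.24. Capitals mark the matched motif, and each sequence reads 5′ to 3′ on the strand of the gene. The windows are chr8:71464853-71464925 (plus strand) for Mrpl34, chr14:54426826-54426904 (plus strand, with the motif on the other strand) for Mrpl52 and chr7:105811282-105811337 (minus strand) for Mrpl17 in GRCm38.p6, all of them upstream of the gene both in RefSeq and in the gene table.
Mrpl34: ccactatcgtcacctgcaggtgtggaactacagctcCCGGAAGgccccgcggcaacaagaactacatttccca
Mrpl52: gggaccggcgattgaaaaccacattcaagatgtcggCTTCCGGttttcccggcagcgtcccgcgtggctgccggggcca
Mrpl17: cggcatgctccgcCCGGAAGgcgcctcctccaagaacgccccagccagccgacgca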

How the data were processed

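The authors sequenced poly-T selected RNA with non-directional libraries on an Illumina NovaSeq instrument, and their notes name HISAT2 2.0.5 and featureCounts 1.5.0-p3. The genome build is not given in the sources used here. The deposited table gives FPKM per gene in 27 samples of 5 groups. Multiplied by gene length and divided by a step estimated for each sample from its smallest values, they gave whole reads (tolerance 0.05 reads, wider for large counts). The totals are the reads counted in genes, and the step gives a denominator that differs from them.

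log2 values, as log2(FPKM + 1), were computed from the deposited FPKM for genes at FPKM 0.5 or more in at least 5 samples and fitted with limma 3.58.1 (R 4.3.3; all samples in 1 fit, trend, two-sided tests, Benjamini-Hochberg adjustment over 14630 genes, threshold 0.05). Tables and figures were made with Python 3.11.15, pandas 2.3.3, numpy 2.4.6 and matplotlib 3.10.9. The fit was tested on artificial data with the fitted spread and 200 changed genes of 14630. At day 3 it recovered 81% of log2 changes of 1 and 98% of changes of 2, with 10 false calls, and at day 21 these were 79%, 99% and 13. The artificial data had independent noise for each gene, no smaller changes and no scaling differences between samples. They therefore do not measure recovery or false calls for smaller changes shared by many genes, such as most of those of the members.

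Members and lists were chosen with earlier results of these data known. Named were, per comparison, the 6 called members with the largest changes each way, the 5 highest and 5 lowest without injury, members failing the filter, Dap3, Mrps36, Mrps30 and the Mrps18 paralogs, and at most 3 called genes per list and comparison. Other genes are said to be chosen after their values were seen. Alternatives were pseudocounts, filters, scalings, voom weights, no trend, only the groups compared, a replicate block and each sample left out.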

Additional observations from a re-analysis of the deposited data

Results flagged for a closer look

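In 140 groups of values (each named member, the summed FPKM and the mean log2 level, in each of the 5 groups), 8 single samples lay far from the others of their group. Chance alone marks about 1 in 20 such groups. Mrpl34 stood at an FPKM of 216 in uninjured replicate 1, against 146 for the next sample, and at 98.3 in day 21 replicate 5, against 122 for the next. Mrps36 stood at 98.4 in uninjured replicate 1, against 72.9. Mrps22 was low in uninjured replicate 3, at 3.69 against 5.87, and high in day 3 replicate 1, at 5.30 against 3.74. Mrps18b was low in day 3 replicate 5, at 3.91 against 7.18. Mrpl33 was low in day 14 replicate 1, at 5.56 against 11.1. The mean log2(FPKM + 1) of the members was 4.28 in day 21 replicate 5, against 4.47 for the next sample.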

How the results depend on the processing

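Count and median results kept their direction and stayed within the limits set (1.5 times for counts, the SD of 0.22 within groups for medians) in 565 of the cases tried, moved in 44 and reversed in 6. The pseudocounts 0.1 and 0.5, the filter at FPKM 1, limma without trend, voom weights and median-ratio scaling moved none of them. On a common sum of FPKM the members called lower were 0, 1, 0 and 0 at days 3, 7, 14 and 21 and 7 at day 21 against day 3, and those called higher 10, 4, 0 and 0, and 0 for the last. The medians there were 0.26, 0.14 and 0.030 at days 3, 7 and 14 and -0.27 for day 21 against day 3. On own totals 1, 3 and 1 were lower at days 3, 7 and 14, 4 lower at day 21 against day 3, 7 and 1 higher at days 3 and 7 and 0 higher at day 21 against day 3, with medians of 0.11, -0.028, -0.042 and -0.13. The cause was not tested. Quantile normalization gave 1 higher at day 3, 9 lower at day 14 and 15 higher at day 21 against day 3. A fit to only the groups compared, with fewer samples, gave 6 lower at day 21 and 21 higher at day 21 against day 3, where no filter on low values gave 3. Without replicate 5 of days 3 and 7 together, 30 were lower at day 7.

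With 1 sample left out at a time, the members called lower ranged over 29–51, 29–53, 11–34 and 0–0 at days 3, 7, 14 and 21, and over 0–0 at day 21 against day 3. Those called higher ranged over 0–0 on each day and over 0–11 at day 21 against day 3. Medians ranged from -0.54 to -0.43, -0.57 to -0.45, -0.46 to -0.30, -0.26 to -0.15 and 0.25 to 0.34 in that order.

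With the replicate number as a replicate block 38 members were lower at day 14, 1 at day 21 and 11 higher at day 21 against day 3. With the letter in the sample descriptions as a replicate block these were 35, 1 and 2. Other counts moved by at most 1.5 times. Deviations of same-numbered samples from their group means correlated at -0.52 to 0.57 (51 pairs, 15 over 0.1), at a median of -0.0031 against 0.0029 for other pairs. For samples with the same letter the median was 0.020 (49 pairs) against 0.00067. Neither label thus showed a general pairing, but these correlations cannot tell whether some samples share an animal.

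Of the results for single named genes, 11460 kept direction and call, 715 lost and 91 gained a call, 112 uncalled ones changed sign and 45 reversed. The reversed log2 fold changes on a common sum were the following. At day 3 Mrpl30 0.020, Mrpl12 0.026, Mrpl34 0.24, Mrps23 0.051, Mrpl23 0.11, Mrps9 0.025, Mrps35 0.21, Dap3 0.20, Mrps36 0.036, Ptcd3 0.030, Aurkaip1 0.32, Gatb 0.010. At day 7 Mrps23 0.032, Mrpl23 0.11, Mrpl47 0.13, Mrps35 0.059, Mrps30 0.20, Dap3 0.068, Aurkaip1 0.20, Gfm2 0.026, Aars2 0.070, Twnk 0.069. At day 21 against day 3 Mrpl16 -0.053, Mrps9 -0.0028, Dap3 -0.15, Eral1 -0.0027, Nsun4 -0.043, Oxa1l -0.20, Aars2 -0.0086, Gatb -0.053, Tefm -0.032, Tfb2m -0.062, Polrmt -0.23. On own totals they were the following. At day 3 Mrpl34 0.086, Mrps35 0.082, Dap3 0.056, Aurkaip1 0.17. At day 7 Mrps30 0.050, Aurkaip1 0.025. At day 21 against day 3 Dap3 -0.010, Oxa1l -0.045, Polrmt -0.093. With quantile normalization they were the following. At day 7 Tnnt3 0.11, Ckm 0.12, Atp2a1 0.026. The cause was not tested. Calls at day 21 rest on 5 samples a group.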
